A study of Homo sapiens with 18 samples.

Results

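AP-1 is a family of dimeric transcription factors, and 8 of its genes were examined here in PANC-1 cells, by their RNA levels and by the ac4C peaks listed on their transcripts. They were taken by name, as 3 genes of the JUN subfamily (JUN, JUNB, JUND), 4 of the FOS subfamily (FOS, FOSB, FOSL1, FOSL2) and ATF3, out of 58302 genes in the expression table. All 8 were found. PANC-1 is a cell line from a human pancreatic ductal adenocarcinoma (PDAC). Control cells (shCtrl) carried a control shRNA vector, which the labels call empty while the methods of the study list a non-targeting shRNA, and NAT10-KD cells (shNAT10) a vector with an shRNA against NAT10, which encodes the enzyme that writes N4-acetylcytidine (ac4C) on RNA; the labels do not say which of the shRNAs of the study was used. RNA-seq was made from 3 libraries per group. For acRIP-seq, RNA fragments were pulled down with an antibody against ac4C, from 3 IP and 3 input samples per group, and 1 list of peaks was deposited per group. Nothing in the labels says that the samples of a group were separate cultures, so p-values measure only the spread between these samples, which may be technical.

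AP-1 proteins share a basic region that contacts DNA and a leucine zipper through which they pair. JUN proteins pair with each other or with FOS proteins, whereas FOS proteins do not form stable pairs among themselves, and ATF3 pairs with JUN proteins or with itself. FOS, FOSB, JUN, JUNB and ATF3 are classical immediate early genes, switched on by MAP kinase signaling or stress, while FOSL1 is maintained by sustained ERK signaling.

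The JUN subfamily genes have no introns, and acRIP-seq peaks in or reaching into their coding sequences (CDS) carry the comparison between the lists. The stretches are shown 5′ to 3′ on the coding strand, from GENCODE v29 transcripts on GRCh38. Capitals mark runs of a C followed by any 2 bases, repeated at least 4 times, a C-rich pattern that has been reported at ac4C sites. Peaks over the start of the JUN and JUNB coding sequence and over the end of that of JUN were listed in both groups. These peaks run on into the untranslated regions (UTR), and the base positions printed are the coding part of those covered in both. JUN start lies at chr1:58782977-58783070 on the minus strand and JUN end at chr1:58782078-58782348, up to the last coding base before the stop codon, through the part that encodes the basic region and the leucine zipper. JUNB start lies at chr19:12791772-12791824 on the plus strand.
JUN start: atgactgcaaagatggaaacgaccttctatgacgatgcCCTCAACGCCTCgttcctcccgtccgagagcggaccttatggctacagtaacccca
JUN end: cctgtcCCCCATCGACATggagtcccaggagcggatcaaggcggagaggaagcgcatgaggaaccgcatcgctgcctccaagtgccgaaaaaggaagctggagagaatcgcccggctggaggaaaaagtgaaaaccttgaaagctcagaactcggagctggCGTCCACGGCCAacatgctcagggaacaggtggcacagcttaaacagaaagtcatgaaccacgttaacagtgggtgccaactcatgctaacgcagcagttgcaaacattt
JUNB start: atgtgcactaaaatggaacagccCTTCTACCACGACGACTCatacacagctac

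Other peaks in these coding sequences were listed in shCtrl cells and had no overlapping peak in shNAT10 cells, or the reverse. JUNB middle holds the first 300 bases, at chr19:12792122-12792421, of a peak listed in shCtrl cells alone. JUND middle, at chr19:18280706-18280929 on the minus strand, is the part shared by a pair of overlapping shCtrl peaks. JUND front, at chr19:18281149-18281326, is a peak listed in shNAT10 cells alone.
JUNB middle: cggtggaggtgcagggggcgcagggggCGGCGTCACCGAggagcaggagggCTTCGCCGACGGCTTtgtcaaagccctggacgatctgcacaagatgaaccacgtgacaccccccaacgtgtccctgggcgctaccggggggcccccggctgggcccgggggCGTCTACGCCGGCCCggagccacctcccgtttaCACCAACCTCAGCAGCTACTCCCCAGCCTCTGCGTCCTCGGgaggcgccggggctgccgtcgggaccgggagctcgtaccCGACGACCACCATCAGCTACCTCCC
JUND middle: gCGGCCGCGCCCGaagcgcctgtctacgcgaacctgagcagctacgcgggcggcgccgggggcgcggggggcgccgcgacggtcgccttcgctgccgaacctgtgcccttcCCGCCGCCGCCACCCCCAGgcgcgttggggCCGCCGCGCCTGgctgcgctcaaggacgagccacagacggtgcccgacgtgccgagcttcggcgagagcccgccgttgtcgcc
JUND front: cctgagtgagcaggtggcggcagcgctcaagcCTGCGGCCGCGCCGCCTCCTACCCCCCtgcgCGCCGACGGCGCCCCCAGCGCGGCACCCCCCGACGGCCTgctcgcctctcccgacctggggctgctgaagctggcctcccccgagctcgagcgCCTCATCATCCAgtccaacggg
JUND front is 45.5% C, JUND middle 40.6% and JUNB middle 37.3%, against 33.0% in JUN start, 32.1% in JUNB start and 25.8% in JUN end. In JUN end 24 of 271 bases lie in such runs. The whole coding part of the shCtrl peak at JUN end, of 451 bases, is 32.4% C. In JUNB middle the runs took 108 of 300 bases, the longest with 41 bases.

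NAT10 was checked in each library beforehand. Its FPKM, a read count scaled to the length of the transcript and to the depth of the library, was 31.6, 27.7 and 28.6 in shCtrl cells and 7.92, 8.43 and 7.90 in shNAT10 cells. It fell by 1.84 on the log2 scale (SE 0.08, adjusted p = 3.9e-05 in limma). The libraries held 15831720 to 23521762 reads, as recovered from the steps between FPKM values. shCtrl replicate 2 stood apart from the other control libraries, with a chi-square per gene of 45.9 and 27.2 against them, while all other pairs of a group lay between 2.20 and 6.78. All 6 ductal epithelial markers were detected, and their summed FPKM was 2792 to 3753 in shCtrl and 1497 to 1678 in shNAT10 cells. KRT8, KRT18 and KRT19 carry that sum, whereas EPCAM went from a mean of 4.87 to 22.6 and CDH1 from 4.24 to 5.31 FPKM. Endothelial markers summed to at most 0.117 FPKM. Of the fibroblast and leukocyte markers, COL1A1 (28.6 to 34.0 FPKM in shCtrl and 17.3 to 20.8 in shNAT10 cells) and CD14 (2.14 to 2.93 and 1.34 to 1.56) were above 1 FPKM and the other 6 were below. The part of these shifts in the AP-1 values was not tested.

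The transcripts of 6 of the 8 AP-1 genes were above 1 FPKM in every library. In shCtrl cells the order of the mean FPKM was JUNB, FOSL1, JUND, JUN, FOSL2, ATF3, FOSB and FOS, from 38.9 down to 0.469. JUNB and FOSL1 overlapped in their libraries, and so did JUND and JUN, and FOSB and FOS. In shNAT10 cells FOSL1 came highest, at 39.0 ± 2.54 FPKM (SD, n = 3), and its lowest library lay above the highest of JUNB. JUNB, JUND and JUN overlapped with their neighbors in that order. FPKM is scaled to the length of the transcript and not to its GC content, which ran from 46.7% (ATF3) to 69.7% (JUND). The part of GC content in this order was not tested.

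Of the 6 AP-1 genes tested, only JUNB was called changed upon NAT10 KD, where 21.2% of all genes tested were called lower and 20.8% higher. It encodes a JUN protein that activates many AP-1 sites less strongly than JUN does and can restrain JUN. Its FPKM was 33.7, 46.0 and 37.0 in control cells and 25.3, 24.9 and 21.2 upon NAT10 KD. Every shNAT10 library thus lay below every shCtrl library, and the highest control value was that of shCtrl replicate 2. The mean fell to 0.611 of the control level, from 38.9 ± 6.37 to 23.8 ± 2.26 FPKM (SD, n = 3 each). On the log2(FPKM + 0.1) scale JUNB fell by 0.70 (SE 0.13, 95% confidence interval of the ratio 0.498 to 0.761, limma adjusted p = 0.00541). The two-sided exact permutation test of the 6 values gave p = 0.1, the smallest that 3 against 3 can give. Without shCtrl replicate 2 the decrease was 0.57 (limma adjusted p = 0.00125). After the libraries had been corrected for the length and GC content of the transcripts, it was 0.43 (limma adjusted p = 0.000231). JUNB is GC-rich, at 64.9% of its transcript against a median of 48.1% over the genes tested. Its exon overlaps HOOK2 on the opposite strand over 14.2% of its length, and HOOK2 was at 7.31 ± 0.736 FPKM in shCtrl and 7.24 ± 0.170 in shNAT10 cells. Whether the counting used strand is not given in the sources used here.

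JUNB alone was called lower among the 6 AP-1 genes tested, at an adjusted p under 0.05, and 0 of 6 were called higher. Over all 12982 genes tested, those at 1 FPKM or more in at least 3 libraries, 21.2% were called lower and 20.8% higher, so a single call in 6 is near that background. Scaled to TPM, where each library sums to the same total, 61.8% of all calls were higher, against 49.5% of the calls in FPKM, and the median of all genes moved from -0.01 to 0.10. JUNB was then lower by 0.59, and JUN, JUND and FOSL2, none of them called, turned from below 0 to 0.017, 0.031 and 0.054. No AP-1 gene passed a log2 change beyond 1 in either direction. The median log2 fold change of the 6 was -0.08, against -0.01 over all genes tested. In bulk RNA a change in the share of cells that express a gene and a change per cell cannot be told apart.

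**Figure D1:**
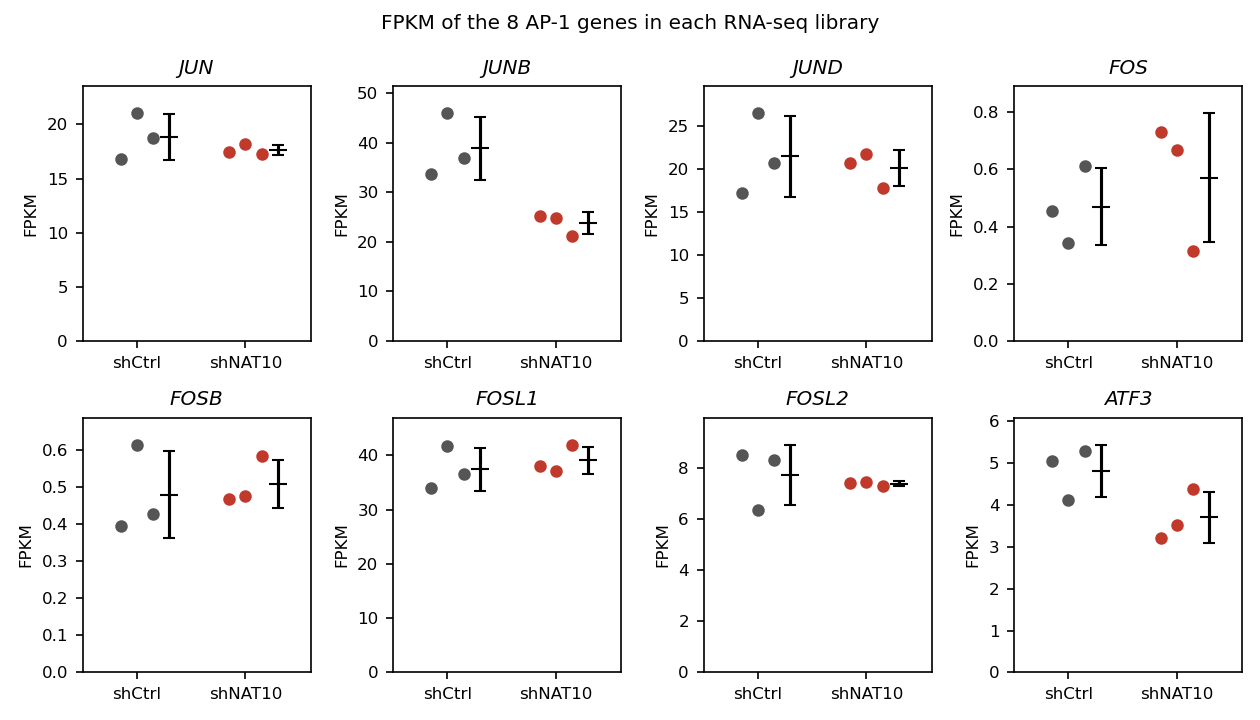
FPKM (y axis, from 0, a scale for each gene) of the 8 AP-1 genes in the 3 shCtrl and 3 shNAT10 libraries (points), with the mean and SD of each group (bar to the right). In the JUNB panel the shNAT10 libraries lie at 21.2 to 25.3 and the shCtrl libraries at 33.7 to 46.0 FPKM.

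JUN, the founding member and a strong activator, was at 16.8, 21.0 and 18.7 FPKM in shCtrl and 17.4, 18.2 and 17.3 FPKM in shNAT10 cells. The groups overlapped, and the log2 fold change was -0.09 (95% confidence interval of the ratio 0.808 to 1.09, limma adjusted p = 0.463). JUND, which is expressed more steadily than JUN and JUNB in many cell types, was at 17.2, 26.5 and 20.7 FPKM in shCtrl and 20.7, 21.8 and 17.8 FPKM in shNAT10 cells. Its shCtrl libraries spanned all of its shNAT10 values, and the ratio lay within 0.729 to 1.23 (limma adjusted p = 0.727). With the correction for length and GC content JUND was higher in shNAT10 cells by 0.20 on the log2 scale (limma adjusted p = 0.00947), a reversal of the uncorrected -0.08. JUND has the most GC-rich transcript of the 8, at 69.7%.

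JUNB took a smaller share of the JUN subfamily in every shNAT10 library than in any shCtrl library. The summed FPKM of its 3 genes was 67.7, 93.5 and 76.4 in shCtrl and 63.4, 64.8 and 56.3 in shNAT10 libraries. JUNB made up 49.7%, 49.2% and 48.4% of the sum in shCtrl libraries and 39.8%, 38.4% and 37.6% in shNAT10 libraries. These shares did not overlap between the groups, where 3 against 3 libraries allow no exact permutation p below 0.1. The JUNB share of shCtrl replicate 2 lay between those of the other control libraries, in contrast to its JUNB FPKM. That library had the lowest JUN share (22.5%) and the highest JUND share (28.3%) of the controls. JUND took 26.9% ± 1.45 and JUN 23.9% ± 1.27 in shCtrl cells, against 32.6% ± 0.990 and 28.8% ± 1.76 in shNAT10 cells (SD, n = 3). Shares of a library add up to the whole, so a lower JUNB share means a higher joint share of JUN and JUND. The FPKM of JUN and of JUND was not called changed. A share within a library does not depend on how that library was scaled. The shares were not computed with the correction for length and GC content. That correction moved the log2 fold changes from -0.70 to -0.43 (JUNB), -0.08 to 0.20 (JUND) and -0.09 to -0.009 (JUN).

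**Figure D2:**
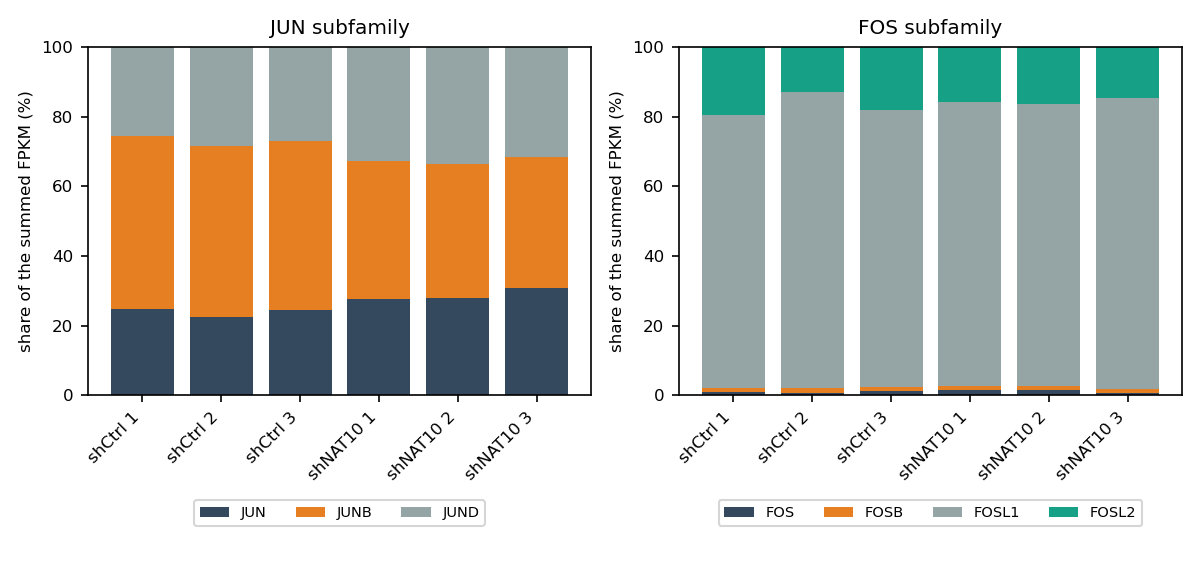
Share of each gene in the summed FPKM of its subfamily (y axis, percent) in each RNA-seq library (bars), for the JUN subfamily (left) and the FOS subfamily (right). JUNB takes 48.4% to 49.7% of the JUN sum in shCtrl and 37.6% to 39.8% in shNAT10 libraries, while FOSL1 takes 78.4% to 85.1% and 81.2% to 83.7% of the FOS sum.

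FOSL1 dominated the FOS subfamily in both groups. It encodes FRA-1, a FOS protein without the strong activation domain of FOS, and it was at 34.1, 41.7 and 36.5 FPKM in shCtrl and 38.0, 37.2 and 41.9 FPKM in shNAT10 cells. The groups overlapped, with a log2 fold change of 0.06 (95% confidence interval of the ratio 0.896 to 1.219, limma adjusted p = 0.616). After the correction for length and GC content it was 0.29 (limma adjusted p = 0.0155). FOSL1 made up 81.0% ± 3.55 of the FOS sum in shCtrl and 82.1% ± 1.35 in shNAT10 cells (SD, n = 3).

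FOSL2, which encodes the related FRA-2, was at 8.53, 6.38 and 8.32 FPKM in shCtrl and 7.42, 7.49 and 7.29 FPKM in shNAT10 cells. All shNAT10 values lay inside the range of the controls, with shCtrl replicate 2 as the lowest library. Its log2 fold change was -0.05 (95% confidence interval of the ratio 0.794 to 1.17, limma adjusted p = 0.746). Without shCtrl replicate 2 it was called lower, by 0.18 (limma adjusted p = 0.0397).

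FOS and FOSB, the FOS proteins of the acute response, were below 1 FPKM in all 6 libraries and were therefore not tested. FOS was at 0.454, 0.343 and 0.611 FPKM in shCtrl and 0.732, 0.668 and 0.315 FPKM in shNAT10 cells, which corresponds to 12 to 31 reads per library. FOSB was at 0.397, 0.615 and 0.428 FPKM in shCtrl and 0.469, 0.477 and 0.584 FPKM in shNAT10 cells, from 26 to 47 reads. Groups overlapped for both, and a difference was not detectable at this depth.

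ATF3, a stress-induced factor that often represses its targets, was at 5.04, 4.11 and 5.30 FPKM in shCtrl and 3.21, 3.52 and 4.38 FPKM in shNAT10 cells. The highest shNAT10 library lay above the lowest shCtrl library, shCtrl replicate 2, so the groups overlapped. The log2 fold change was -0.37 (SE 0.15, 95% confidence interval of the ratio 0.606 to 0.984) and missed the threshold (limma adjusted p = 0.0819). ATF3 was called lower without shCtrl replicate 2 (log2 fold change -0.48, limma adjusted p = 0.0193) and without shNAT10 replicate 3 (-0.50, limma adjusted p = 0.0493). Over all alternatives its adjusted p lay between 0.0193 and 0.252. Without shCtrl replicate 2, then, 3 of 6 AP-1 genes (JUNB, FOSL2 and ATF3) were called lower.

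**Figure D3:**
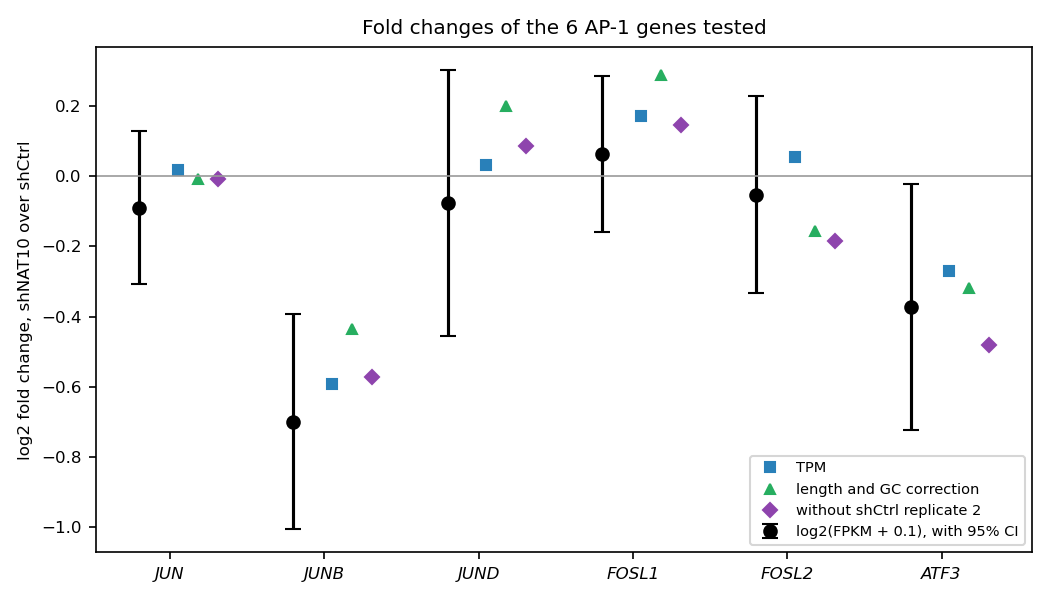
Log2 fold change of shNAT10 over shCtrl (y axis) for the 6 AP-1 genes tested, as the main value with its 95% confidence interval (circles) and under 3 alternatives (other symbols). JUNB lies between -0.70 and -0.43 in all of those drawn, while JUND and FOSL1 reach 0.20 and 0.29 with the correction for length and GC content.

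The RNA profile of JUNB across the 6 libraries was most like those of PRMT1, PNPLA2 and RTKN among 11017 protein-coding genes tested, with Pearson's r of 0.999 for each on the log2 scale. PRMT1, an arginine methyltransferase, was at 68.5, 87.8 and 72.8 FPKM in shCtrl and 54.3, 53.5 and 48.1 FPKM in shNAT10 cells. All 3 shared with JUNB a high value in shCtrl replicate 2 and the lowest value in shNAT10 replicate 3. Such likeness was common, since 1978 of these genes had an r above 0.9 to JUNB.

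Beyond the 8 genes, 6 lists of related genes were described, all chosen with earlier results of these data known. The part of that choice in their counts and medians was not tested. The other bZIP proteins that pair with AP-1 or compete for its sites moved in both directions. Of 19 listed, 14 were tested, 4 were called lower (28.6%, against 21.2% of all genes tested) and 2 higher (14.3%, against 20.8%), with a median log2 fold change of -0.11. The fit without a filter called 4 of 18 lower (22.2%, against 7.85% of all genes) and 2 higher (11.1%, against 7.55%). BATF2, below the filter and at a mean of 0.939 FPKM in shCtrl and 0.173 in shNAT10 cells, was called lower in that fit (log2 fold change -1.94, limma adjusted p = 0.0175). BATF3, a JUN partner known from immune cells, went from 1.80 ± 0.563 to 0.737 ± 0.0683 FPKM (log2 fold change -1.15, limma adjusted p = 0.00940). It met the expression filter in shCtrl libraries alone, and its log2 fold change was -0.67 with a pseudocount of 1. MAFF, a small MAF protein without an activation domain, was lower by 0.68 on the log2 scale (limma adjusted p = 0.0292). ATF2, a JUN partner at CRE-type sites, rose from 16.1 ± 2.33 to 24.5 ± 0.868 FPKM (log2 fold change 0.61, limma adjusted p = 0.00534). ATF1, a CREB-type factor, rose from 7.92 ± 0.959 to 14.1 ± 1.49 FPKM (log2 fold change 0.83, limma adjusted p = 0.00185). MAFF was not called without the expression filter or without shCtrl replicate 2 or 3 or shNAT10 replicate 1 or 3, with limma adjusted p up to 0.101. For the list, 2 genes were called lower without shCtrl replicate 3, and 5 were called higher without shCtrl replicate 2.

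The kinases and ternary complex factors upstream of FOS and JUN had 26 of 27 genes tested, with 4 called lower (15.4%) and 6 higher (23.1%) and a median of -0.10, near the 21.2% and 20.8% of all genes tested. MAP3K1, which feeds the JNK branch, went from 4.06, 2.23 and 3.23 FPKM to 1.45, 1.37 and 1.34 FPKM (log2 fold change -1.10, limma adjusted p = 0.00679). MAP2K3, an activator of p38, fell from 28.97 ± 4.04 to 17.3 ± 0.457 FPKM (log2 fold change -0.73). ELK4, a ternary complex factor that binds with SRF at serum response elements, rose from 5.29 ± 1.21 to 9.73 ± 0.741 FPKM (log2 fold change 0.89), and the ERK-activated kinase RPS6KA3 rose by 0.56. Without shCtrl replicate 2, 8 genes of this list were called lower, and 2 were with shCtrl replicate 3 or any of the shNAT10 libraries left out in its place.

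The inhibitors that ERK, JNK and p38 signaling induce against themselves, listed with earlier results of these data known, were called lower more often than higher. Of 15 tested, 8 were called lower (53.3%, against 21.2% of all genes) and 1 higher (6.67%, against 20.8%), with a median of -0.29. DUSP2 and DUSP10 met the expression filter in shCtrl libraries alone, so these counts depend in part on the filter. Without it, 6 of 16 were called lower (37.5%, against 7.85% of all genes) and 1 higher (6.25%, against 7.55%). DUSP6, an ERK phosphatase, was at 2.52, 2.71 and 3.00 FPKM in shCtrl and 1.45, 1.38 and 1.31 FPKM in shNAT10 cells (log2 fold change -0.94, SE 0.13, limma adjusted p = 0.00162). The groups did not overlap, which the rule for naming genes of a list required. The phosphatases DUSP2 (log2 fold change -1.54), DUSP10 (-0.93) and DUSP5 (-0.62) fell as well. With a pseudocount of 1, DUSP2 was at -0.70 and DUSP10 at -0.52. DUSP16, a phosphatase that acts on JNK, was the gene called higher. The count of genes called lower was 4 without shCtrl replicate 3 and 5 without shCtrl replicate 1, shCtrl replicate 2 or shNAT10 replicate 2. The count called higher was 2 without shCtrl replicate 2 and 0 without shNAT10 replicate 1.

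Other immediate early genes, likewise listed with earlier results known, were also called lower more often than higher. Of 26 listed, 18 were tested and 8, among them EGR1 and NR4A1, were below the expression filter. 9 were called lower (50%, against 21.2% of all genes) and 2 higher (11.1%, against 20.8%), with a median of -0.34. MCL1, an anti-apoptotic BCL2 relative, was at 76.2, 67.1 and 75.04 FPKM in shCtrl and 36.0, 36.6 and 36.8 FPKM in shNAT10 cells (log2 fold change -0.99, SE 0.07, limma adjusted p = 0.000146). CTGF, a matricellular protein, fell from 25.1 ± 0.921 to 14.5 ± 0.0486 FPKM (log2 fold change -0.79). KLF2 (log2 fold change -1.11) and ZFP36L1 (-0.72), an mRNA decay factor, also fell, whereas KLF6 and ZFP36L2 were called higher. The list had 1 higher call without shNAT10 replicate 2. EGR1, a zinc finger factor of the acute response, was at 0.680, 0.992 and 0.772 FPKM in shCtrl and 0.503, 0.246 and 0.469 FPKM in shNAT10 cells. In the fit without a filter it was not called (log2 fold change -0.88, limma adjusted p = 0.131). That fit called 8 of 26 genes of the list lower (30.8%, against 7.85% of all genes) and 2 higher (7.69%, against 7.55%).

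Textbook AP-1 target genes had the lowest median of the 6 lists, at -0.69 on the log2 scale. This list too was chosen with earlier results of these data known, and the part of that choice in its median and counts was not tested. IL11 and HBEGF, tested and not called, met the expression filter in shCtrl libraries alone, so this median depends in part on the filter. Without the filter it was -0.51, against -0.02 over all genes. Of 23 listed, 14 were tested, 8 of them called lower (57.1%, against 21.2% of all genes) and 3 higher (21.4%, against 20.8%), and 6 of the 8 fell by more than 1 on the log2 scale. CCND1, the G1 cyclin D1, was at 165, 159 and 162 FPKM in shCtrl and 67.6, 67.0 and 69.0 FPKM in shNAT10 cells (log2 fold change -1.26, SE 0.06, limma adjusted p = 4.4e-05). HMOX1, a heme oxygenase, went from 23.2 ± 2.38 to 9.16 ± 0.274 FPKM (log2 fold change -1.32). CCND1 and HMOX1 were named by a rule that takes genes with large changes and groups that do not overlap, so their separation is no further result. PLAUR, the urokinase receptor, fell from 5.56 ± 0.598 to 2.23 ± 0.143 FPKM (log2 fold change -1.28). VEGFA, EZR and CD44 were called higher, and the list had 1 higher call without shCtrl replicate 3 or any of the shNAT10 libraries. The genes MMP1, MMP3, MMP9, MMP10, MMP13, IL6, CXCL8, SPP1 and INHBA of the list were below the filter. Of these, MMP1 was at 0.234, 0.125 and 0.324 FPKM in shCtrl and 1.25, 0.836 and 1.18 FPKM in shNAT10 cells, and INHBA, an activin subunit, at 0.275 ± 0.0548 against 0.744 ± 0.0498 FPKM (SD, n = 3). Both were higher in every shNAT10 library than in any shCtrl library, opposite to the median of the list, and were called higher in the fit without a filter (limma adjusted p = 0.0130 and 0.0283). That fit called 8 of 19 genes of the list lower (42.1%, against 7.85% of all genes) and 4 higher (21.1%, against 7.55%). All of these genes have other regulators, and the part of AP-1 in their levels was not tested.

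Stress response genes that are induced together with ATF3 went both ways, with 3 of 9 tested called lower and 3 higher (33.3% each, against 21.2% and 20.8% of all genes) and a median of 0.10. CHAC1 fell from 9.02 ± 0.714 to 3.98 ± 0.615 FPKM (log2 fold change -1.17, limma adjusted p = 0.000578) and the stress factor XBP1 from 26.6 ± 2.87 to 16.8 ± 0.634 FPKM (-0.65). TRIB3 (log2 fold change 0.63) and DDIT4 (0.41) rose. ATF4, the factor upstream of ATF3 in this response, was at 91.6 and 82.7 FPKM on average and was not called. The lists were described by counts only, and none was tested as a set.

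**Figure D4:**
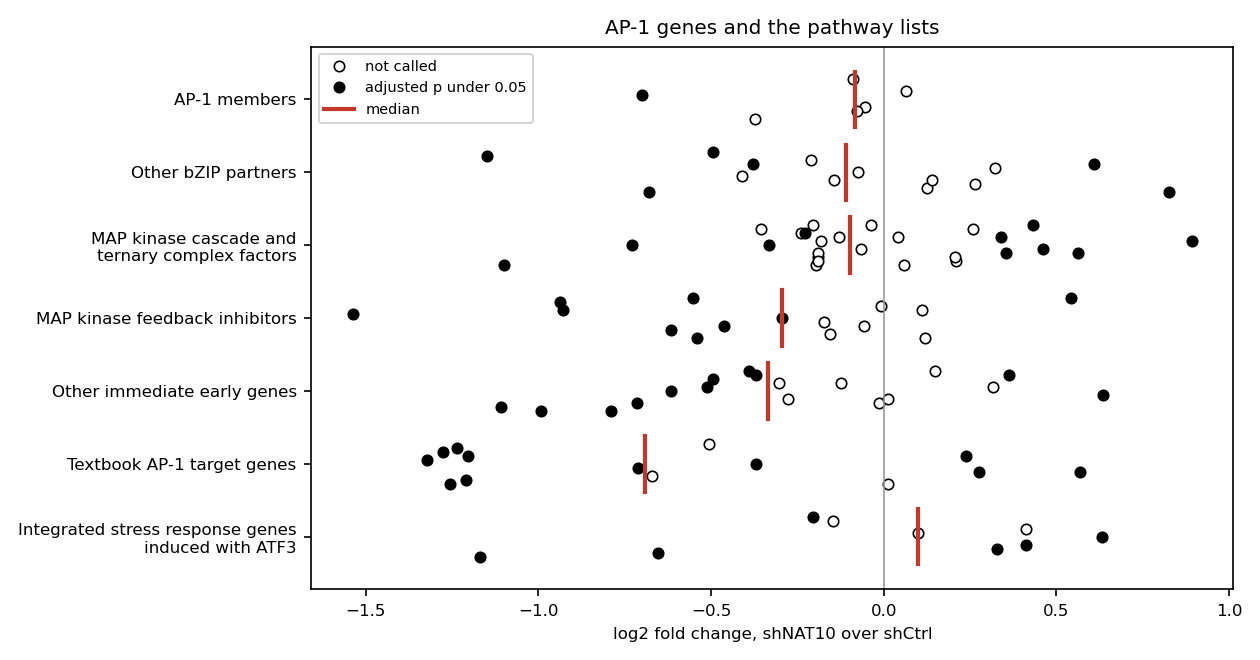
Log2 fold change of shNAT10 over shCtrl (x axis) for each gene tested of the AP-1 genes and of 6 lists (rows), with filled points at a limma adjusted p under 0.05 and a bar at the median of each row. The medians run from -0.69 for the textbook AP-1 targets to 0.10 for the stress response genes, and that of the AP-1 genes is -0.08.

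acRIP-seq peaks were listed on all 8 AP-1 genes in shCtrl cells and on 7 in shNAT10 cells. Of the 6 genes tested in RNA-seq, 6 had a peak in shCtrl and 5 in shNAT10 cells, where 49.6% and 47.7% of all genes tested had one. That share differed with expression, and was 31.0% at 1 to 5, 55.7% at 5 to 20 and 69.6% at 20 to 100 FPKM in shCtrl cells. The AP-1 genes held 28 peaks in shCtrl and 26 in shNAT10 cells. With 1 list per group there is no spread between replicates, and the lists give no test of a difference. Fold enrichment compares IP with input and is given as listed.

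By the midpoint of each peak on the longest coding transcript, 26 of the 28 shCtrl peaks could be placed, 5 in the 5′ UTR, 10 in the CDS and 11 in the 3′ UTR. In shNAT10 cells 23 of 26 were placed, 3 in the 5′ UTR, 7 in the CDS and 13 in the 3′ UTR. Over all placed peaks, 3.43% of the shCtrl and 3.52% of the shNAT10 list lay in the 5′ UTR and 57.1% and 57.3% in the CDS.

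Of the shCtrl peaks on AP-1 genes, 14 of 28 (50%) overlapped a shNAT10 peak by at least 1 base, where 25.6% of the whole list did. Of the shNAT10 peaks, 16 of 26 (61.5%) overlapped a shCtrl peak, where 27.4% of the whole list did. Peaks of 1 transcript share their RNA and are not independent, and FOS and FOSB alone gave 11 peaks in each list.

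JUN had overlapping peaks in both lists, with different fold enrichments. In shCtrl cells its 3 peaks had fold enrichments of 3.72, 11.4 and 13, from the 5′ UTR across the start codon to the end of the CDS. Each overlapped 1 of the 3 shNAT10 peaks, whose values were 60.1, 3.28 and 168 in the same order. The outer peaks were thus higher and the peak at the start codon lower in shNAT10 cells. The highest value of JUN was 12.9 times higher in shNAT10 cells, and 91.5% of the 4377 genes tested with a peak in both lists had a lower ratio. These ratios ran from -4.67 to 4.43 on the log2 scale between the 5th and 95th percentiles.

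JUNB had 2 peaks in each list. The peak over its start codon was at a fold enrichment of 24.7 in shCtrl and 19.7 in shNAT10 cells, and these overlapped. The peak in the middle of its CDS, 478 bases long at a fold enrichment of 24.9, was in the shCtrl list alone. A peak of 180 bases at the stop codon and in the 3′ UTR, at 11.2, was in the shNAT10 list alone. JUNB peaks covered 718 bases in shCtrl and 390 in shNAT10 cells.

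JUND peaks did not overlap between the lists. In shCtrl cells a pair of overlapping peaks in the CDS had fold enrichments of 148 and 407, and a peak in the 3′ UTR had 12.7. In shNAT10 cells the peak in the front part of the CDS was at 9.14 and that in the 3′ UTR at 5.61. The highest value was thus 0.0225 of that in shCtrl cells, and 3.24% of the genes with peaks in both lists had a lower ratio. FPKM of JUND overlapped between the groups.

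**Figure D5:**
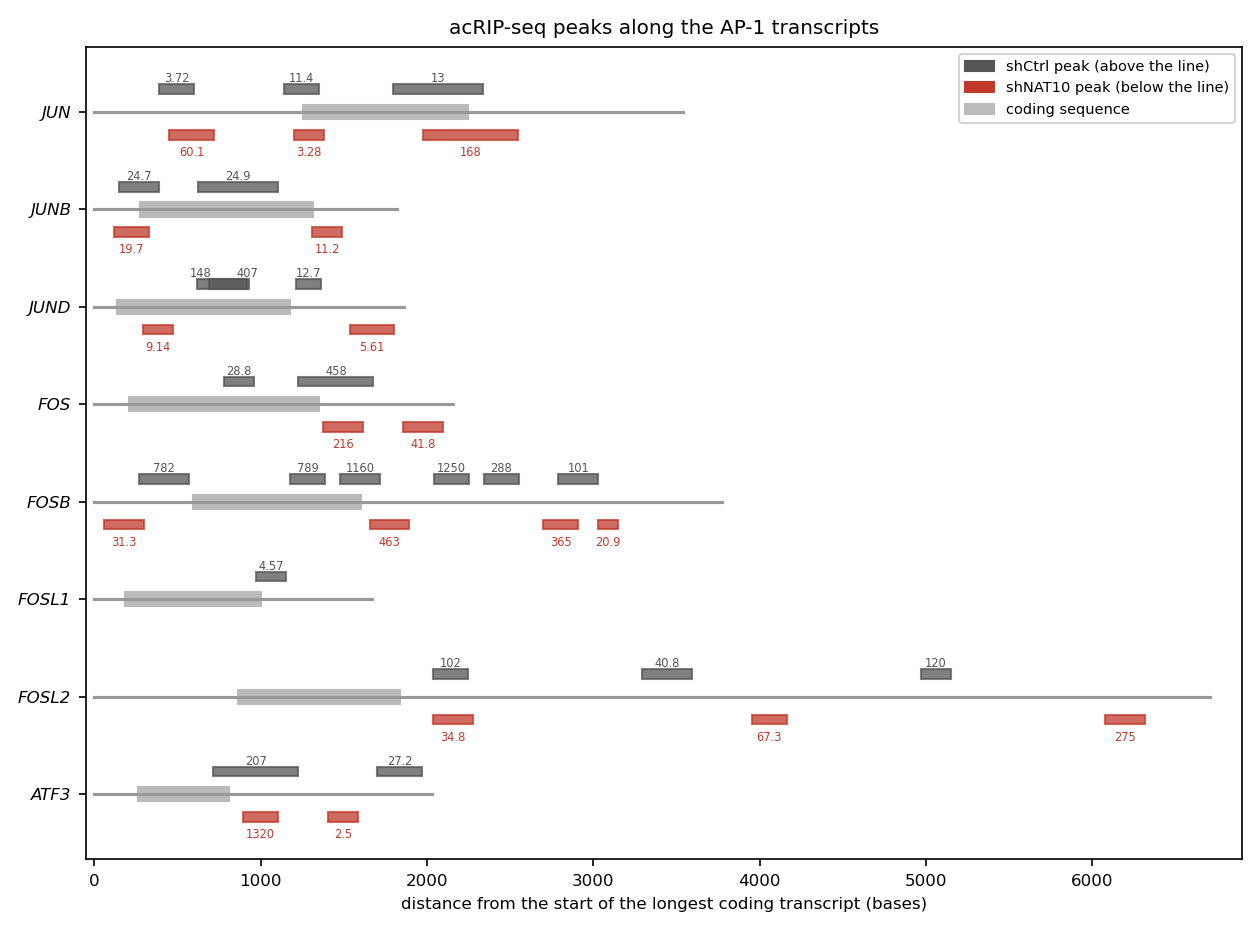
acRIP-seq peaks on the longest coding transcript of each AP-1 gene (x axis, distance from its start in bases), with shCtrl peaks above and shNAT10 peaks below the line, the CDS as a grey box and the fold enrichment beside each peak. Peaks that run off that transcript are not drawn. JUN peaks pair up between the lists, JUND peaks do not, and FOSL1 has 1 peak, at 4.57 in shCtrl cells.

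FOSL1 had the fewest peaks, although it was among the most abundant of the 8. Its peak, of 180 bases at the stop codon and in the 3′ UTR, had a fold enrichment of 4.57, above 8.81% of the shCtrl list. By p-value this peak was in the 50% of the list with the lowest values. Genes at 20 to 100 FPKM with a shCtrl peak had a median highest fold enrichment of 27.7 (quartiles 11.25 and 92.5). No peak was listed for FOSL1 in shNAT10 cells. Of the genes tested, 15.8% had a peak in shCtrl cells alone and 13.9% in shNAT10 cells alone. FOSL2 had 4 peaks in shCtrl and 3 in shNAT10 cells, of which 1 pair in the 3′ UTR overlapped, at 102 in shCtrl and 34.8 in shNAT10 cells.

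FOS and FOSB, the genes with the fewest reads in RNA-seq, had many peaks with high fold enrichment. FOS had 4 peaks in shCtrl, at 28.8 to 458, and 5 in shNAT10 cells, at 24.4 to 216. FOSB had 7 in shCtrl, at 101 to 1250, and 6 in shNAT10 cells, at 20.9 to 463. By p-value these peaks were weaker, since 0 of the 9 FOS peaks, 4 of the 7 shCtrl peaks of FOSB and 0 of its 6 shNAT10 peaks were in the 50% of their list with the lowest p-values. High fold enrichment was common at such levels. The 749 genes at 0.1 to 1 FPKM with a shCtrl peak had a median highest value of 285 (quartiles 36.0 and 1010), and the 1819 genes at 20 to 100 FPKM one of 27.7. FOSB lay above the upper quartile and FOS within the quartiles. In shNAT10 cells the quartiles were 41.8 and 1045, and the highest values of both genes lay within them. The number of peaks was less common, since 7.88% of those 749 genes had 4 or more. RNA levels in the input libraries were not analysed here.

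ATF3 had 4 peaks in shCtrl, at 27.2 to 207, and 5 in shNAT10 cells, at 2.50 to 1320. Both lists held a peak across a splice junction in its CDS and a peak over the 3′ UTR close to the stop codon, the latter at 207 in shCtrl and 1320 in shNAT10 cells. The shCtrl peak at 207 also overlapped a shNAT10 peak at 129, and it met a reciprocal overlap of 50% with neither. The highest value was 6.38 times higher in shNAT10 cells, and 85.4% of the genes with peaks in both lists had a lower ratio.

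The C-rich pattern, CNN repeated 4 times, was searched on the sense strand in the peaks whose bases could all be read from the longest coding transcript. It was found in 19 of 22 AP-1 peaks in shCtrl and in 13 of 18 in shNAT10 cells. Over all peaks read, 51.4% and 50.8% held it, and over peaks within 10% of the lengths of the AP-1 peaks 54.2% and 49.5%. Transcripts of 7 of the 8 AP-1 genes, all but ATF3, were more GC-rich than the median of the genes tested, at 52.6% to 69.7%. A match is a description of the sequence and not an acetylated site.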

How the data were processed

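RNA-seq was made from captured mRNA with a stranded kit, and the authors deposited FPKM per gene for 3 shCtrl and 3 shNAT10 libraries. The submitters' processing notes name HISAT2 version 2, HTSeq 0.11.0, DESeq2 1.22.2 and the build GRCh38. For acRIP-seq the authors deposited 1 peak list per group, with the p-value of each peak, the fold enrichment (a ratio of IP to input), and scores that hold log10 of the p-value and of the false discovery rate. The peak caller is not given in the sources used here.

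Reads were recovered from the FPKM values: multiplied by the length of the longest GENCODE v29 transcript and by the depth, 97.2% to 97.3% of the values above 0 lay within 0.05 of a whole number of reads. Of the 58302 genes, 58039 were in that annotation. The 12982 genes that reached an FPKM of 1 in 3 or more libraries entered limma 3.58.1 (R 4.3.3) on log2(FPKM + 0.1), with the prior variance following the mean level, Benjamini-Hochberg adjustment over all of them, and calls at an adjusted p under 0.05. The pseudocount understates changes of low genes. Values per gene were also compared with an exact permutation test (SciPy 1.17.1). Peaks were taken by the Ensembl identifier of the gene, and overlap needed at least 1 base on the same strand. Counting error of reads is covered by the spread between libraries. The steps were tested on simulated data.

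The AP-1 genes and the 6 lists were chosen with earlier results of these data known. Named are all AP-1 genes, NAT10, up to 4 genes per list with the largest change among called genes whose groups do not overlap, and the 3 genes most like the AP-1 gene with the lowest p; further list genes and HOOK2 were named after their values were seen. Alternatives were a pseudocount of 1, no filter, quantile normalization, TPM, median centring, a minimum FPKM of 5, a correction for length and GC content by splines, voom on the recovered reads, a fit without the mean-variance trend, a block for the replicate number, each library left out, peaks in the 50% with the highest fold enrichment or lowest p-values, a reciprocal overlap of 50%, and the transcript with the longest CDS. TMM scaling was not run. Of the genes this rule names, 1 is not reported here. No column of per-sample values was left unused.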

Additional observations from a re-analysis of the deposited data

How the results depend on the processing

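JUNB stayed called lower in all 16 alternatives, with log2 fold changes of -0.80 to -0.43. In TPM the log2 fold changes of JUN, JUND and FOSL2 turned to 0.017, 0.031 and 0.054, none called. The number of AP-1 genes called higher was 2 with the length and GC correction (JUND 0.20, FOSL1 0.29), the cause of which was not tested. With a library left out, 1 to 3 AP-1 genes were called lower, and the log2 fold change was -0.22 to 0.086 for JUND, -0.00164 to 0.14 for FOSL1, -0.18 to 0.022 for FOSL2 and -0.50 to -0.28 for ATF3. Without a filter on expression the log2 fold change was 0.20 for FOS and 0.086 for FOSB, neither called (limma adjusted p = 0.769 and 0.874).

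Among the lists, genes called lower came to 2 (bZIP partners) and 4 (feedback inhibitors) at a minimum FPKM of 5, where fewer genes were tested, and 8 (MAP kinase cascade) with the length and GC correction. Genes called higher came to 4 (bZIP partners), 2 (feedback inhibitors) and 5 (stress response) in TPM, to 4, 2 and 5 (bZIP partners, feedback inhibitors, immediate early genes) with the length and GC correction, and to 0 (feedback inhibitors) at a minimum FPKM of 5. With a library left out, lower calls ranged over 2 to 4 (bZIP partners), 2 to 8 (MAP kinase cascade) and 4 to 6 (feedback inhibitors), and higher calls over 2 to 5 (bZIP partners), 0 to 2 (feedback inhibitors), 1 to 3 (immediate early genes) and 1 to 3 (AP-1 targets).

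Among the most enriched 50% of each list, 17 shCtrl peaks on 5 AP-1 genes and 14 shNAT10 peaks were left, and in the 50% with the lowest p-values 15 and 11. The replicate numbers did not pair the libraries (correlation of deviations of same-numbered libraries -0.04, 0.06 and 0.11), and with the number as a block JUNB was at -0.70 (limma adjusted p = 0.00791) and no AP-1 call changed. FOS and FOSB, with 12 to 47 reads per library, are limited by depth, and 1 peak list per group allows no error for the peaks.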
